A study of Mus musculus with 14 samples.

Results

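The promoters described here are 10 promoters of mouse embryonic stem cells (ESCs) and neural precursor cells (NPCs) that held more called chromatin loops with auxin than without it: those of Pwp1, Sptssa, Hnrnph3, Thumpd3, Gprc5c, Kpna4, Mtmr10, Anxa11, Slc37a1 and Tmem171. They are 10 of 14231 protein-coding genes whose promoter could be placed in a 10 kb bin carrying an H3K4me3 peak. They were picked by name from loop counts in these data, Thumpd3, Gprc5c and Slc37a1 in ESCs, Sptssa, Hnrnph3, Kpna4, Mtmr10, Anxa11 and Tmem171 in NPCs, and Pwp1 in both. Their loop counts in the cell type of choice are therefore a description and not a finding. The positions of their partners and the H3K4me3 state of the partners are not among the values that chose them. Nor, as far as the description of that choice goes, are the counts in the other cell type, but the exact ranking behind it was not available to check.

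Contacts had been measured by H3K4me3 PLAC-seq, in which ligated chromatin is immunoprecipitated for trimethylated lysine 4 of histone H3, a mark of active promoters, before the joined ends are sequenced. All cells compared here were F123 mouse cells labelled CTCF-AID, in which CTCF carries an auxin-inducible degron, so the controls carry the tagged CTCF too. The groups were ESCs with auxin for 48 h, ESC controls with 0 h of auxin, NPCs differentiated with auxin to day 4, and NPC controls of day 4, with 2 samples each. Auxin was given as 1 µl of a 500 mM stock per ml of medium, and the NPC titles give no hours of treatment. Each group came with 1 loop list per caller, from MAPS and from FitHiChIP, which leaves the differences between groups without a check over replicates and without p-values. The labels do not say whether the line is 1 clone, and markers of the cell types cannot be read from contact lists.

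CTCF is a zinc finger protein that halts cohesin as it extrudes chromatin loops, and pairs of CTCF sites anchor many loops and domain boundaries. With CTCF removed, cohesin still extrudes, and a promoter can touch sequence that lay beyond a boundary. A called loop is a pair of 10 kb bins with more joined read pairs than the caller expects at that distance. A pair that is not listed can still be in contact, since it may have narrowly missed the caller's thresholds.

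The MAPS lists held 27610 loops in ESCs with auxin and 56714 in ESC control, and 41667 in NPCs with auxin and 82861 in NPC control. The FitHiChIP lists held 22705, 33475, 24836 and 44892 loops in the same order of groups, out of 48307867, 47519917, 59961568 and 52337421 contacts. In MAPS lists every loop had at least 12 reads, a ratio of observed to expected reads of at least 2.00 and a false discovery rate (FDR) under 0.01.

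The promoter sequences of Pwp1 and Sptssa, the members with the highest median distance and the highest number of gained partners in NPCs, and of Kpna4 are shown. Matches to a CTCF core and CpG pairs were looked up as a description, and no link of either to the loop lists was tested. Each runs over the 250 bases before the transcription start, 5′ to 3′, from RefSeq on GRCm38.p6, and 8 of the 10 members had an entry there. Pwp1 lies on the plus strand at chr10:85871581-85871830, and Sptssa on the minus strand at chr12:54656573-54656822, each with CpG pairs in capitals. Kpna4 lies on the minus strand at chr3:69127093-69127342, with a match to the CTCF core in capitals, and was added after its values were seen.
Pwp1: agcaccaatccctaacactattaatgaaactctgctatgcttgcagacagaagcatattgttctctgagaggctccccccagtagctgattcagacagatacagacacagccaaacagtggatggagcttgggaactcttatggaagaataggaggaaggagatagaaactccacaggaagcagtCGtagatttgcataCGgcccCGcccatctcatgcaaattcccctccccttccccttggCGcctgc
Sptssa: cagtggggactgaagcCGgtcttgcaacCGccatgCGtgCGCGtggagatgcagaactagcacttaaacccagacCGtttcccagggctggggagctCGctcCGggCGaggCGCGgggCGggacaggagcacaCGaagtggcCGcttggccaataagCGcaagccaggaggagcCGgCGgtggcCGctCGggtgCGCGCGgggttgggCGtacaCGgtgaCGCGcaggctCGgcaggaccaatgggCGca
Kpna4: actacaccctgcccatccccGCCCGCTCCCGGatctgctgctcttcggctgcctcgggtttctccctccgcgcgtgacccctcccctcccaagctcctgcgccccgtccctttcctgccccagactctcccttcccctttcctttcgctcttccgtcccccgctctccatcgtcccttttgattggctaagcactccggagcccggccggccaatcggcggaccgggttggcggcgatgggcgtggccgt

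The core searched, on both strands, was a relaxed form of 12 bases: CC, 3 free bases, AG, 2 free bases and GGC. It occurred in 1 of the 8 member promoters, that of Kpna4, where it reads GCCCGCTCCCGG on the strand shown, from base 230 to base 219 before the start. Of the 21263 promoters in the RefSeq set, 8.20% held it, and over the 13664 promoters in H3K4me3 bins 10.7%. A match is a description of letters and not a binding site. CpG pairs numbered 4 in Pwp1, 17 in Anxa11, 19 in Thumpd3, 21 in Slc37a1, 24 in Kpna4, 25 in Hnrnph3, 28 in Sptssa and 29 in Mtmr10. Their median of 22.5 stands beside 15.5 (quartiles 9 and 23) over promoters in H3K4me3 bins. Pwp1 alone lay below the lower quartile, and Kpna4, Hnrnph3, Sptssa and Mtmr10 lay above the upper one.

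With auxin the 10 promoters together held 86 MAPS loops in ESCs, against 19 in ESC control, and 111 in NPCs, against 31 in NPC control. All 10 held more loops with auxin in both cell types, while 22.3% of promoter bins with a loop did so in ESCs and 20.4% in NPCs. Adjacent bins are often called together, and counted as runs of adjacent partners the members had 52 runs in ESCs with auxin and 15 in ESC control, and 52 runs in NPCs with auxin and 21 in NPC control. The smallest gain among the members in the cell type that chose them was 9 loops. In the FitHiChIP lists 7 of the 10 held more loops with auxin in ESCs, against 24.2% of promoter bins, and 6 in NPCs, against 21.4%, with 44 loops in ESCs with auxin and 20 in ESC control, and 47 in NPCs with auxin and 32 in NPC control. A MAPS gain of at least 9 was also seen at 13 other promoter bins in ESCs and 24 in NPCs.

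**Figure D1:**
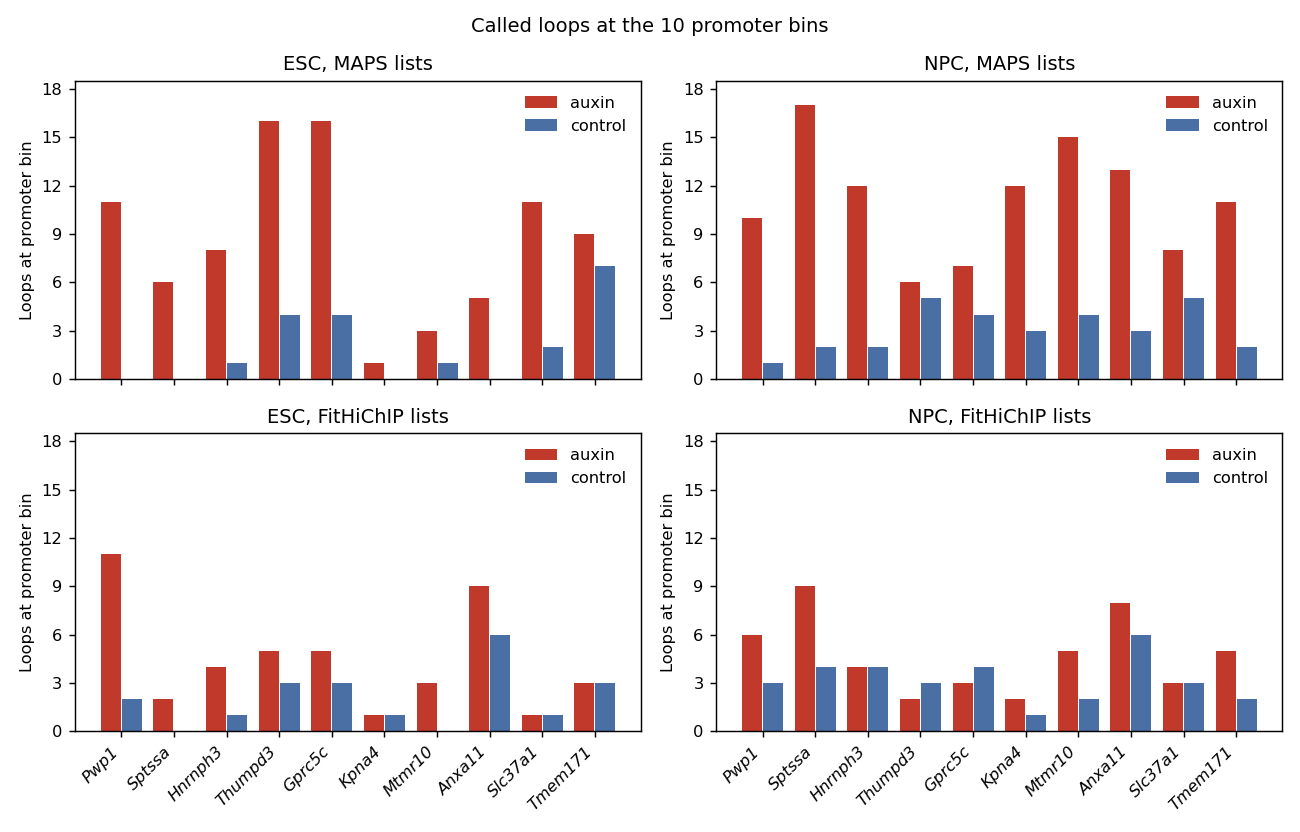
Bars give the number of called loops (vertical axis) at each of the 10 promoter bins (horizontal axis), with auxin in red and in control in blue, for ESCs on the left and NPCs on the right, MAPS above and FitHiChIP below. In the MAPS panels the red bar is the taller one at all 10 promoters, while in the FitHiChIP panels it is so at 7 promoters in ESCs and 6 in NPCs.

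By the description of the choice, the counts in the other cell type stand outside it, but the ranking could not be checked. They may have played a part in it, so they too are given as a description. Of the 6 promoters chosen in NPCs alone, 6 held more loops with auxin in ESCs, with 32 loops with auxin and 9 in ESC control. Among the 24 other promoter bins with an NPC gain of at least 9, 54.2% held more loops in ESCs with auxin, and among the 2184 with any NPC gain 32.7% did. Of the 3 chosen in ESCs alone, 3 held more loops with auxin in NPCs, with 21 loops with auxin and 14 in NPC control. Among the 13 other promoter bins with an ESC gain of at least 9, 53.8% held more loops in NPCs with auxin, and among the 2132 with any ESC gain 33.5% did. These shares are of single MAPS lists that each have their own thresholds, and no test was run on them. The FitHiChIP lists differed. Of the 6, Sptssa, Hnrnph3, Mtmr10 and Anxa11 held more loops there in ESCs with auxin, while Kpna4 and Tmem171 held equal numbers. Of the 3, Thumpd3 held 2 loops in NPCs with auxin and 3 in NPC control, Gprc5c 3 and 4, and Slc37a1 3 in each list.

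Pwp1 encodes a nucleolar WD-repeat protein of ribosome production, and its bin is chr10:85870001-85880000 with the start at 85871831. It held 11 MAPS loops in ESCs with auxin and 0 in ESC control, and 10 in NPCs with auxin and 1 in NPC control. Every MAPS partner lay on the side of lower coordinates, 490 to 700 kb away in ESCs and 480 to 690 kb away in NPCs. A stretch of partners 640 to 690 kb away was called in both auxin lists, bin for bin, and ended at the promoter bin of Cry1, a repressor of the circadian clock.

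The strongest partner of Pwp1 in NPCs lay 650 kb away at chr10:85220001-85230000, with 33 reads where 4.82 were expected, a ratio of 6.85. In ESCs it lay 660 kb away with 26 reads, a ratio of 5.57. Those were the highest ratios among the gained pairs of all members in either cell type, and neither partner bin carried an H3K4me3 peak. The Cry1 bin itself, which did carry one, had 45 reads in NPCs with auxin and 31 in NPC control, where it was the single partner of Pwp1. In ESCs it had 19 reads with auxin and was not called in control. The promoter bin of Btbd11, 490 kb away and marked, was gained in both cell types, with 25 reads in ESCs and 46 in NPCs. FitHiChIP called 11 loops at Pwp1 in ESCs with auxin and 2 in ESC control, and 6 in NPCs with auxin and 3 in NPC control.

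Sptssa encodes a small subunit of serine palmitoyltransferase, the enzyme that starts sphingolipid synthesis, and its bin is chr12:54650001-54660000. It held 6 loops in ESCs with auxin and 0 in ESC control, and 17 in NPCs with auxin and 2 in NPC control, the highest number of any member in NPCs. All MAPS partners again lay at lower coordinates, 340 to 510 kb away in ESCs and 310 to 610 kb away in NPCs. The 2 control loops of NPCs, 330 and 340 kb away, were also called with auxin, and gained partners lay on both sides of them.

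The promoter bin of Egln3, a prolyl hydroxylase that acts on hypoxia-inducible factors, lay 450 kb from Sptssa at chr12:54200001-54210000. It was gained in both cell types, with 16 reads in ESCs (ratio 2.55) and 37 in NPCs (ratio 2.79). A marked bin inside Npas3, a transcription factor gene of the nervous system, was called 590 kb away in NPCs with auxin, with 38 reads where 10.9 were expected. MAPS did not list it in ESCs with auxin, where FitHiChIP did, with 20 contacts. In all, FitHiChIP called 2 loops in ESCs with auxin and 0 in ESC control, and 9 in NPCs with auxin and 4 in NPC control.

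Hnrnph3, an RNA-binding protein of the hnRNP family, shares its bin chr10:63020001-63030000 with the promoter of Pbld2, so its loops cannot be given to either gene alone. The bin held 8 loops in ESCs with auxin and 1 in ESC control, and 12 in NPCs with auxin and 2 in NPC control. All MAPS partners lay at higher coordinates, 200 to 360 kb away. The promoter bin of Dnajc12, a co-chaperone, was called in all 4 lists at 360 kb, with 38 reads in ESCs with auxin and 23 in ESC control, and 57 in NPCs with auxin and 54 in NPC control. Gained partners lay in the span before it, and among them the promoter bins of Herc4, a ubiquitin ligase, at 220 kb and of the deacetylase Sirt1 at 310 kb were gained in both cell types. Herc4 had 32 reads in ESCs and 69 in NPCs, and Sirt1 had 26 in ESCs and 57 in NPCs. The bin 240 kb away, inside Herc4 and unmarked, had the highest ratio, 4.01 with 59 reads in NPCs. FitHiChIP called 4 loops in ESCs with auxin and 1 in ESC control, and 4 in both NPC lists. It listed Herc4 in NPC control as well, with 70 contacts with auxin and 45 in control.

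Thumpd3, a tRNA methyltransferase, has its bin at chr6:113040001-113050000. Loops numbered 16 in ESCs with auxin and 4 in ESC control, and 6 in NPCs with auxin and 5 in NPC control, so the NPC lists differed by 1 loop. None of its gained partners was a promoter bin. The bin of the Rad18 promoter, a ubiquitin ligase gene of DNA damage tolerance, was called in all 4 lists 350 kb away, with 43 reads in ESCs with auxin and 37 in ESC control, and 44 in NPCs with auxin and 58 in NPC control. The gained ESC partners lay on both sides of Rad18, 270 to 570 kb from Thumpd3, all at lower coordinates. The most distant was a marked bin overlapping Cav3 and the oxytocin receptor gene Oxtr, with 29 reads in ESCs and 19 in NPCs. A second marked bin in Oxtr, 550 kb away, had 24 reads in ESCs and 34 in NPCs, and neither bin was called in a MAPS control list. FitHiChIP called 5 loops in ESCs with auxin and 3 in ESC control, and 2 in NPCs with auxin and 3 in NPC control.

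Gprc5c, an orphan G protein-coupled receptor, has its bin at chr11:114850001-114860000. It held 16 loops in ESCs with auxin and 4 in ESC control, and 7 in NPCs with auxin and 4 in NPC control. In NPCs the side changed: 7 of 7 partners with auxin lay at higher coordinates, 220 to 350 kb away, and 4 of 4 in control lay at lower coordinates, 20 to 120 kb away. FitHiChIP differed on this point, since it listed the partners at 20 and 30 kb in both NPC lists. In ESCs the pairs at 110 and 120 kb on the lower side were called with auxin and in control, and all 13 gained partners lay on the higher side.

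Gprc5c had more promoters among its gained partners than any other member. In ESCs these were the bins of Rab37, a small GTPase, at 240 kb with 44 reads, Grin2c, an NMDA receptor subunit, at 410 kb with 32, Fdxr, ferredoxin reductase, at 420 kb with 31, Ush1g at 460 kb with 27, Otop3 and Ush1g at 480 kb with 25, and Cdr2l at 540 kb with 27. The bin of Rab37 and Slc9a3r1 at 310 kb was gained in NPCs, with 58 reads, and was called in both ESC lists, with 53 reads with auxin and 44 in control. FitHiChIP called 5 loops in ESCs with auxin and 3 in ESC control, and 3 in NPCs with auxin and 4 in NPC control.

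Kpna4, an importin alpha that carries cargo into the nucleus, has its bin at chr3:69120001-69130000. It held 1 loop in ESCs with auxin and 0 in ESC control, and 12 in NPCs with auxin and 3 in NPC control. Its constant partner was the promoter bin of Nmd3, an adaptor for export of the large ribosomal subunit, 600 kb away. That pair had 65 reads both in NPCs with auxin and in NPC control, and in ESCs it had 24 reads with auxin and was not listed by MAPS in control. FitHiChIP listed it in both ESC lists, with 21 contacts with auxin and 18 in control, so the single ESC gain rests on the caller. In NPCs the gained partner with the most reads was the marked promoter bin of Ppm1l, a protein phosphatase, at 190 kb with 120 reads and a ratio of 2.13. Those at 460 to 650 kb had 13 to 22 reads. FitHiChIP called 1 loop in each ESC list, and 2 in NPCs with auxin and 1 in NPC control.

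Mtmr10, a myotubularin-related protein without phosphatase activity, has its bin at chr7:64280001-64290000. It held 3 loops in ESCs with auxin and 1 in ESC control, and 15 in NPCs with auxin and 4 in NPC control. Partners lay at lower coordinates in every MAPS list. In NPCs they lay nearer with auxin, 220 to 450 kb away (median 330 kb), than in control, 420 to 530 kb away (median 475 kb). The gained partner with the most reads was the promoter bin of Klf13, a Krüppel-like transcription factor, at 350 kb with 45 reads and a ratio of 2.98. The adjacent bins at 320 to 340 kb were called with it, and a separate run of 6 bins spanned 220 to 270 kb. The pair at 530 kb, a marked bin in Otud7a, was called in both ESC lists and in NPC control, and MAPS did not list it in NPCs with auxin, where FitHiChIP did. FitHiChIP called 3 loops in ESCs with auxin and 0 in ESC control, and 5 in NPCs with auxin and 2 in NPC control.

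Anxa11, a calcium-dependent phospholipid-binding annexin, has its bin at chr14:25840001-25850000. It held 5 loops in ESCs with auxin and 0 in ESC control, and 13 in NPCs with auxin and 3 in NPC control. Most partners lay at higher coordinates, 500 to 560 kb away in ESCs and 450 to 690 kb away in NPCs, and the remaining gained ones at lower coordinates, 120 kb away in ESCs and 90 and 180 kb away in NPCs. The partners at 500, 520, 550 and 560 kb, none of them marked, were called in both auxin lists. The farthest, the marked promoter bin of Slmap, a sarcolemma-associated protein, had 31 reads in NPCs with auxin, a ratio of 2.06 that is close to the threshold. FitHiChIP called 9 loops in ESCs with auxin and 6 in ESC control, and 8 in NPCs with auxin and 6 in NPC control, and most of those it shared between conditions lay 310 to 340 kb away, where MAPS listed none.

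Slc37a1, a sugar phosphate exchanger of the endoplasmic reticulum, has its bin at chr17:31290001-31300000. It held 11 loops in ESCs with auxin and 2 in ESC control, and 8 in NPCs with auxin and 5 in NPC control. With auxin it had the lowest median partner distance of the members, 200 kb in ESCs and 210 kb in NPCs, and partners lay on both sides, 30 to 290 kb away. Of its 8 NPC auxin partners, 7 were also partners in ESCs with auxin. At 220 kb, the promoter bin of Wdr4, a subunit of a tRNA methyltransferase, was gained in ESCs, with 49 reads, and called in both NPC lists, with 77 reads with auxin and 73 in control. The bin 40 kb away was called in all 4 lists, with 184 reads in ESCs with auxin and 254 in ESC control, and 237 in NPCs with auxin and 270 in NPC control. FitHiChIP called 1 loop in each ESC list and 3 in each NPC list.

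Tmem171, a transmembrane protein, has its bin at chr13:98690001-98700000. It held 9 loops in ESCs with auxin and 7 in ESC control, and 11 in NPCs with auxin and 2 in NPC control. Partners with auxin lay only at lower coordinates in these MAPS lists, 170 to 360 kb away in ESCs and 240 to 390 kb away in NPCs. In ESC control, 5 of 7 lay at higher coordinates, 500 to 620 kb away, and none of those 5 was called with auxin. The promoter bin of Foxd1, a forkhead transcription factor, at 340 kb was gained in NPCs, with 66 reads and a ratio of 3.43, and in ESCs had 39 reads with auxin and 27 in control. The Btf3 promoter bin, of a subunit of the nascent polypeptide-associated complex, at 380 kb had 42 reads in NPCs with auxin, and FitHiChIP also listed it in control, with 43 contacts with auxin and 28 in control. FitHiChIP called 3 loops in each ESC list, and 5 in NPCs with auxin and 2 in NPC control.

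**Figure D2:**
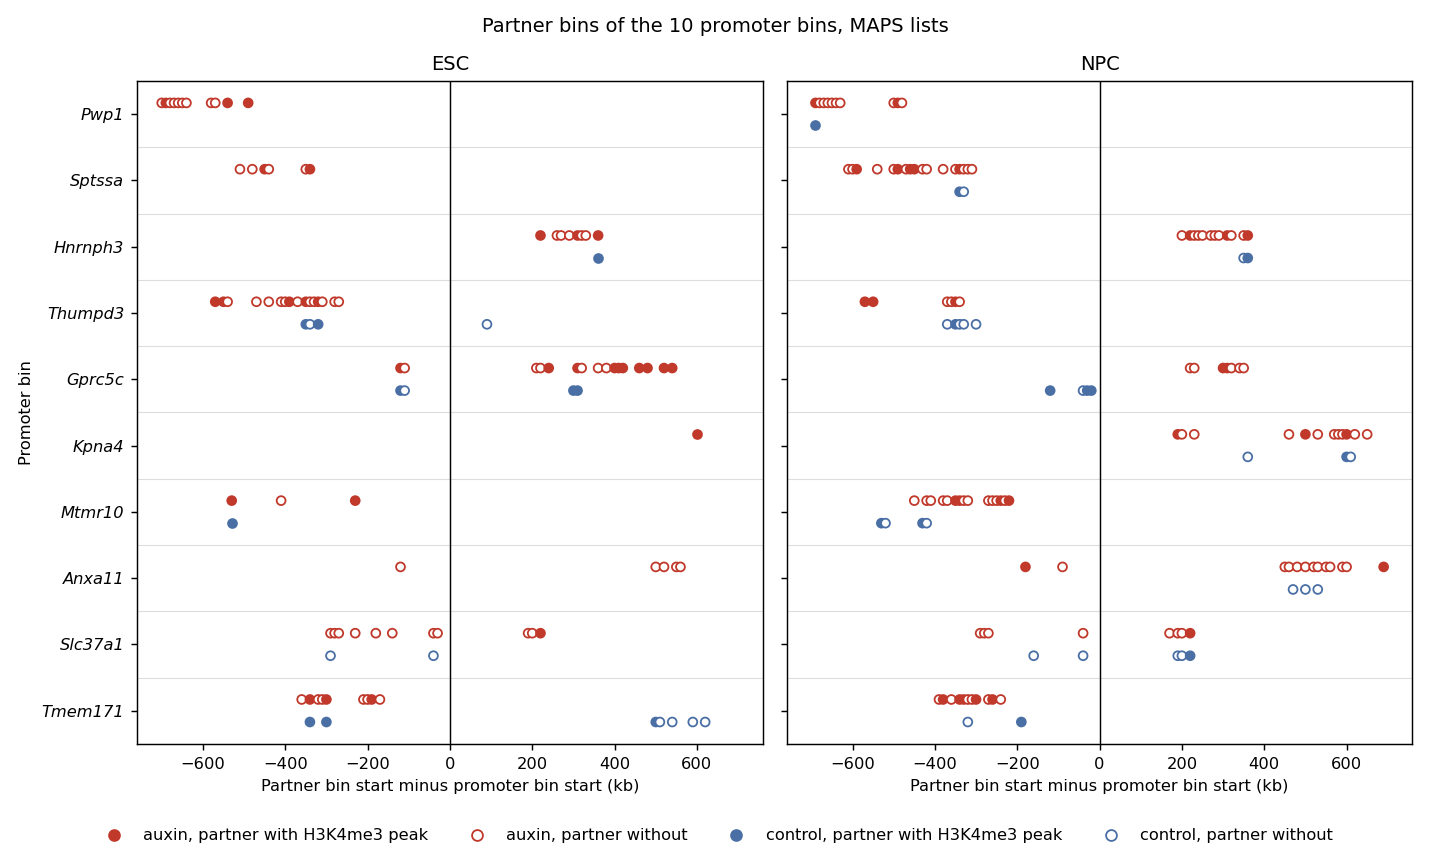
Each point is a MAPS partner bin of a promoter (rows), placed by its distance from the promoter bin in kb (horizontal axis, negative for lower coordinates), in ESCs on the left and NPCs on the right, with auxin in red above and control in blue below, filled where the partner holds an H3K4me3 peak. Red points crowd on 1 side of most promoters and in stretches of neighbouring bins, as at Pwp1 between 640 and 700 kb. Slc37a1 and Anxa11 have them on both sides in ESCs and NPCs, and Gprc5c has them on both sides in ESCs.

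In the MAPS lists the new partners lay mostly 200 kb or more away and mostly in bins without an H3K4me3 peak, whereas most of those that FitHiChIP gained had one. MAPS pairs called with auxin and not in the control of the same cell type numbered 74 in ESCs and 94 in NPCs. Their distances ran from 30 to 700 kb in ESCs, with a median of 375 kb (95% interval 320 to 440), and from 90 to 690 kb in NPCs, with a median of 360 kb (320 to 450). Over all promoter pairs gained with auxin, the median was 260 kb in ESCs (quartiles 170 and 380, 9911 pairs) and 330 kb in NPCs (quartiles 210 and 490, 14496 pairs). In MAPS the ESC median of all promoters lay below the members' interval, and the NPC one lay inside it. In FitHiChIP the members' medians were 510 kb in ESCs (350 to 570) and 340 kb in NPCs (310 to 550). Those of all promoters, 370 and 460 kb, lay inside both intervals. The members' ESC median was thus above that of all promoters with both callers, but only the MAPS interval left the latter out. In NPCs the members' median was above that of all promoters in MAPS and below it in FitHiChIP. MAPS pairs of 500 kb or more made up 28.4% of the members' gained pairs in ESCs, against 12.1% over all promoters. In NPCs the shares were 28.7% and 25.0%. Pwp1 alone gave 11 of the 74 gained MAPS pairs in ESCs, at 490 to 700 kb and mostly in adjacent bins. The ESC median and share lean in part on that promoter, and they were not computed without it. Intervals cover counting error only and treat adjacent pairs as independent, so they are too narrow.

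On the side that held most of a promoter's gained partners lay 70 of 74 in ESCs and 91 of 94 in NPCs. The main side is the one with more partners, so a high share is in part built in. Of the members with at least 2 gained pairs, 77.8% of 9 in ESCs and 80.0% of 10 in NPCs gained them on 1 side only. Other promoter bins with at least 2 were close, at 76.9% of 2822 in ESCs and 75.3% of 3732 in NPCs. With at least 9 gained pairs, the share was 75.0% of 4 members in ESCs and 85.7% of 7 in NPCs. Other promoter bins with at least 9 stood at 55.8% of 86 in ESCs and 61.2% of 183 in NPCs. The members are few at that cut, and the difference was not tested. The median number of other promoter bins between a member and a gained partner was 2 in ESCs, with up to 12, and 1 in NPCs, with up to 4.

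An H3K4me3 peak lay in the partner bin of 22 of the 74 gained pairs in ESCs, which is 29.7% (exact 95% interval 19.7 to 41.5), and of 24 of the 94 in NPCs, 25.5% (17.1 to 35.6). Over all promoter pairs gained with auxin, both bins were marked in 42.6% in ESCs and 29.7% in NPCs. In MAPS the ESC share of all promoters lay above the members' interval, and the NPC one lay inside it. FitHiChIP gave other shares: 20 of 32 gained pairs in ESCs (62.5%, 43.7 to 78.9) and 23 of 29 in NPCs (79.3%, 60.3 to 92.0). Over all promoters they were 74.0% and 78.9%, both inside the intervals. The members' ESC share was thus below that of all promoters with both callers, but only the MAPS interval left the latter out. With runs of adjacent MAPS partners counted once, 46.5% of gained runs in ESCs (31.2 to 62.3) and 42.5% in NPCs (27.0 to 59.1) held a marked bin. A gained run is one without a control pair, and it counts as marked if any of its bins is. These shares are thus not comparable with those of pairs, and none was computed over all promoters.

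The peak flags did not differ between the auxin list and the control list of a cell type, at 100% of 17775 shared bins in ESCs and 26469 in NPCs, so they do not show H3K4me3 after auxin. They do differ between cell types, as at Mtmr10, where the partner 230 kb away was marked in ESCs and not in NPCs, and those at 220 and 240 kb were marked in NPCs. Marked partners had a median of 25.5 reads and unmarked ones 23.0 in ESCs, and 36.5 and 22.0 in NPCs. The median ratio of observed to expected reads went the other way. It was 2.54 at marked and 2.91 at unmarked partners in ESCs, and 2.71 and 2.91 in NPCs.

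**Figure D3:**
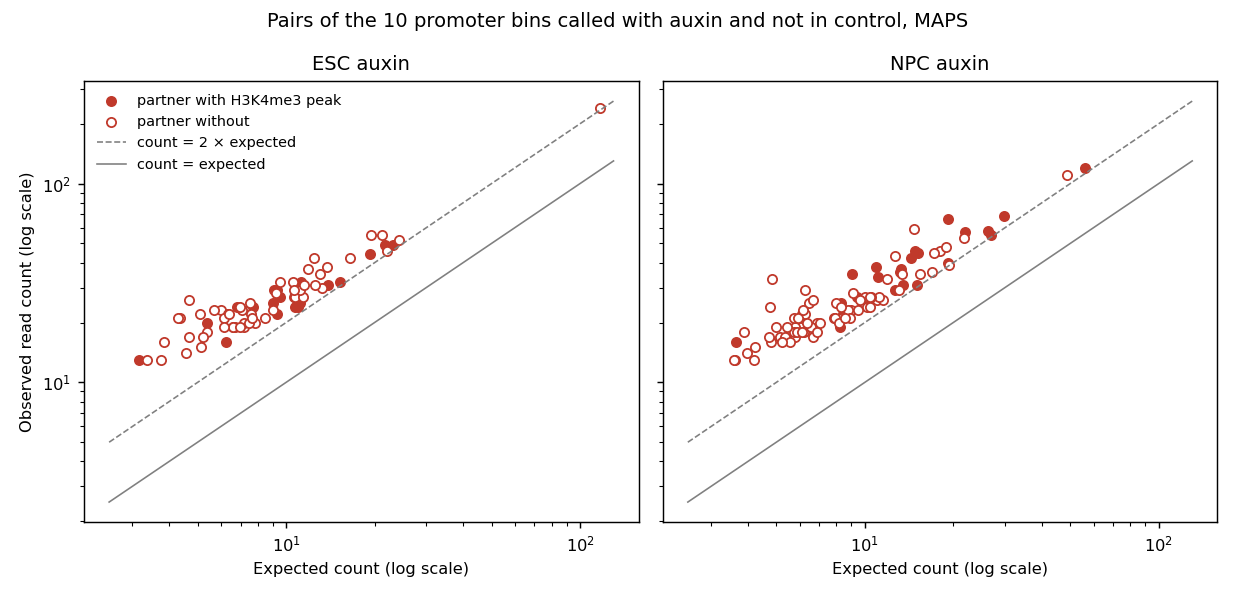
Points are the pairs of the 10 promoters called by MAPS with auxin and not in control, 74 in ESCs on the left and 94 in NPCs on the right, by expected read count (horizontal, log scale) and observed read count (vertical, log scale), filled where the partner holds an H3K4me3 peak. The lines mark a count equal to and 2 times the expected one, and most pairs lie at 13 to 60 reads, above the upper line.

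Most gained pairs rested on few reads. The median was 24 reads in both cell types, with 13 to 241 in ESCs and 13 to 120 in NPCs, and the median ratio of observed to expected reads was 2.83 in ESCs and 2.89 in NPCs, against 2.69 in both over all promoters. An FDR under 0.001 was reached by 43 of the 74 and 58 of the 94. Of the gained pairs, 10.8% in ESCs and 17.0% in NPCs lay within 1 bin of a control pair, against 41.6% and 41.9% over all promoters. That low share follows in part from the few control loops of the chosen promoters. FitHiChIP also called 29.7% of them in ESCs with auxin and 25.5% in NPCs with auxin, against 26.6% and 21.0% over all promoters, and listed 1 of 74 and 2 of 94 in control, the Nmd3, Herc4 and Btf3 pairs named above.

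Every member had gained or kept partners in common between the cell types. Of the 86 ESC auxin pairs, 43 were also NPC auxin pairs, which is 50.0% (39.0 to 61.0) of the ESC list's pairs and 38.7% (29.6 to 48.5) of the 111 in the NPC list. Over all promoter pairs, the 8029 shared ones were 43.1% of 18642 in ESCs and 25.1% of 32018 in NPCs. Such a share depends on how many loops each list holds at the promoters compared, which the choice of the members set, so no difference from all promoters is read from it. Of the 43 shared pairs, 26 were in neither control list. By the ESC flags 16 of the 43 had a marked partner, and among these the Mtmr10 partner at 230 kb was not marked in NPCs. The 43 shared pairs numbered 7 each at Pwp1 and Slc37a1, 6 at Hnrnph3, 5 each at Thumpd3 and Tmem171, 4 at Anxa11, 3 each at Sptssa and Gprc5c, 2 at Mtmr10 and 1 at Kpna4. Allowing 1 bin of difference, 69.8% of ESC pairs and 59.5% of NPC pairs had a counterpart, against 65.5% and 46.5% over all promoters.

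Loops already present in control were kept in part. With auxin 12 of 19 control loops of ESCs and 17 of 31 of NPCs were called again. Over all promoters 24.7% of 35279 control pairs in ESCs and 29.0% of 60397 in NPCs were called again, but promoters chosen for many loops with auxin have more pairs there to match. Among the kept pairs of the members, the read count was higher with auxin at 7 of 12 in ESCs and 9 of 17 in NPCs, and over all shared loops at 35.4% and 40.5%. The median log2 ratio of counts, auxin over control, was 0.13 in ESCs and 0.08 in NPCs, beside -0.11 and -0.07 over all 12979 and 22391 shared loops. Those counts are unscaled. MAPS lists give no total, so they were also divided by the total contacts of the FitHiChIP list of the same group. After that, 7 of 12 were higher with auxin in ESCs and 5 of 17 in NPCs. The medians were then 0.11 in ESCs and -0.12 in NPCs, beside -0.13 and -0.27 over all shared loops, so the direction in NPCs turned with the scaling.

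Without scaling, coverage of the promoter bins was close to control, and short-range reads were higher with auxin in ESCs. The ratios below were not scaled to total contacts, which differed between lists. The FitHiChIP lists had 59961568 contacts in NPCs with auxin and 52337421 in NPC control, and 48307867 and 47519917 in ESCs. Reads covering the bin, given by FitHiChIP, were 0.973 to 1.14 times those of ESC control at the 8 members listed in both ESC lists (median 1.08), and 0.925 to 1.13 times those of NPC control at all 10 (median 1.02). The medians over all promoter bins were 1.04 in ESCs and 1.03 in NPCs. At Thumpd3 the bin had 7346 reads in ESCs with auxin and 6429 in ESC control, and 9703 in NPCs with auxin and 10494 in NPC control. Sptssa had 9333 in NPCs with auxin and 8704 in NPC control, and Pwp1 had 7184 in NPCs with auxin and 7287 in NPC control. The short-range read count that MAPS gives for a bin was 1.06 to 1.38 times control at 6 members in ESCs (median 1.24, over all promoters 1.19) and 0.888 to 1.08 times control at 10 members in NPCs (median 0.975, over all promoters 1.03). The part of these reads in the gains was not tested.

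**Figure D4:**
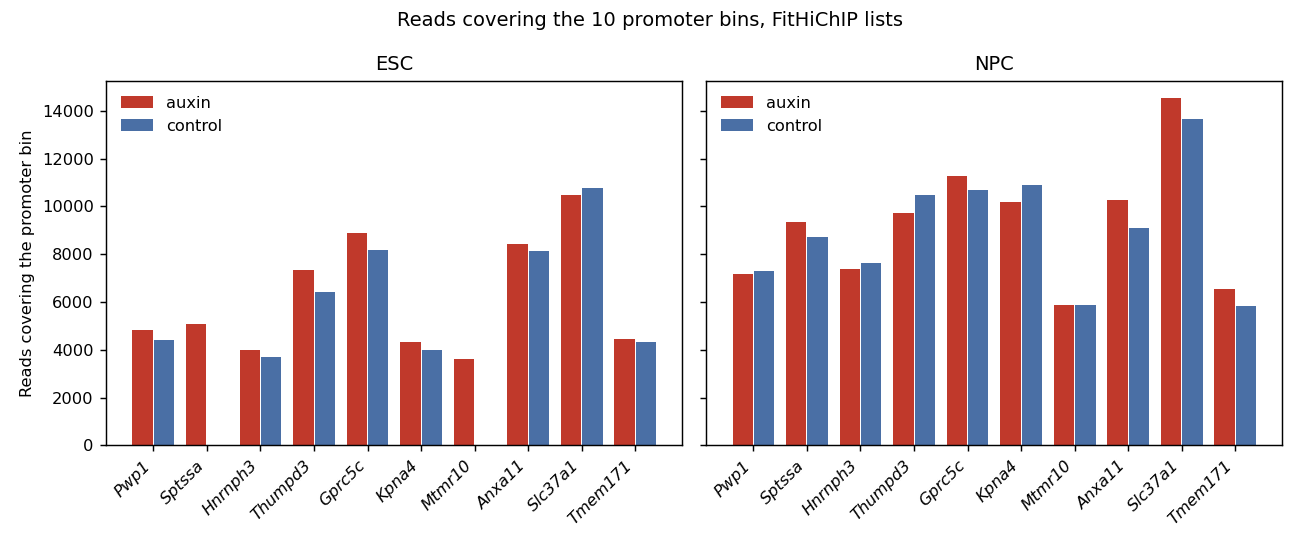
Bars give the unscaled reads covering each of the 10 promoter bins (vertical axis) in the FitHiChIP lists with auxin in red and control in blue, for ESCs on the left and NPCs on the right. The paired bars are of nearly equal height, and Sptssa and Mtmr10 have no control bar in ESCs because that list holds no loop at their bins.

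Loops at nearby promoters were counted as well. Within 100 kb of the members lay 18 other promoter bins. In ESCs 12 of them had a loop, with 27 loops with auxin and 24 in control, 6 having more with auxin and 5 fewer. In NPCs all 18 had a loop, with 52 loops with auxin and 45 in control, 10 having more with auxin and 6 fewer. Over all promoter bins with a MAPS loop, lower shares of 22.3% in ESCs and 20.4% in NPCs had more with auxin. The neighbours are few, and the difference was not tested. Beside Pwp1, the bin of Gm48175 and Rtcb 80 kb away held 11 loops in NPCs with auxin and 15 in NPC control, and beside Thumpd3 the promoter bin of Srgap3 held 0 loops in NPCs with auxin and 8 in NPC control.

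The promoters that became partners were counted in the same way. Of the 13 promoter bins gained as partners in ESCs, 6 held more loops with auxin and 5 fewer, and of the 10 in NPCs 6 held more and 4 fewer. These bins were taken for holding a gained pair, which raises the counts by construction. With the pair to the member left out, 3 held more and 7 fewer in ESCs, and 4 held more and 4 fewer in NPCs. Over all promoter bins with a MAPS loop, 22.3% in ESCs and 20.4% in NPCs held more with auxin. The partner bins are few, and no test was run on them. Cry1 held 2 loops in ESCs with auxin and 11 in ESC control, and Wdr4 held 2 in ESCs with auxin and 10 in ESC control. Fdxr held 12 loops in ESCs with auxin and 6 in ESC control, and Foxd1 held 18 in NPCs with auxin and 13 in NPC control.

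Across the 4 MAPS lists, the promoter bins closest to Pwp1, by Euclidean distance between log2 of loops plus 1 and out of 12846 bins searched, were those of Cckbr (distance 1.28), Rest (1.34), Slfn5 (1.38), Arrdc2 (1.49) and Rdh11 (1.54). The Rest bin held 4 loops in ESCs with auxin and 0 in ESC control, and 7 in NPCs with auxin and 1 in NPC control. Closest to Sptssa were the shared bins of Trp53 and Wrap53 (0.94) and of Ankrd16 and Fbh1 (1.03), followed by Ddx6 (1.22), the bin of Atg2b and Gskip (1.29) and that of Ap4m1 and Mcm7 (1.37). The bin of Trp53 and Wrap53 held 6 loops in ESCs with auxin and 0 in ESC control, and 11 in NPCs with auxin and 4 in NPC control.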

How the data were processed

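H3K4me3 PLAC-seq had been done on 14 samples in 7 groups. The 8 samples of 4 groups were used, and the 6 samples of 3 dCas9 groups were not analysed here. BWA, Picard and mm10 are named, without roles or versions, in the submitters' processing notes. The labels name the caller of each list, and they do not state if the 2 samples behind it were pooled.

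Per the file headers, the deposited MAPS lists give for each pair of 10 kb bins a read count, the expected background (unit signal), their ratio, an FDR (a p-value adjusted by the authors) and a peak flag per bin. The deposited FitHiChIP lists give contact counts, bin coverage, the expected contacts (a signal), a q-value and the expected fraction of all contacts. The total contacts of a list came from dividing its expected contacts by this fraction. All values are the authors' own and were not rescaled, apart from the MAPS counts at kept pairs. Those were also divided by the total contacts of the FitHiChIP list of the same group.

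The promoter bin was the bin of the RefSeq start (GRCm38.p6, with the same chromosomes as mm10) for 8 members, and of a marked gene end for Gprc5c and Tmem171. Of 21887 protein-coding genes, 14231 had a marked promoter bin, in 13263 bins. The table gives no strand, so start sites came from the RefSeq promoter table. A pair was gained when its 2 bins were in the auxin list and not in the control list of the same cell type and caller. Distances run from bin start to bin start. Shares carry Clopper-Pearson 95% intervals and medians order-statistic intervals. The pairs of all promoters used for comparison include those of the members. The scripts (Python 3.11.15, pandas 2.3.3, numpy 2.4.6, scipy 1.17.1, matplotlib 3.10.9) were tested on simulated data with planted pairs. MAPS was the main caller. The alternatives were FitHiChIP, also limited to 20 to 1000 kb, neighbouring bins, an FDR under 0.001, a tolerance of 1 bin and runs of adjacent partners.

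The members and lists were chosen with earlier results of these data known. Partner genes were named where their promoter bin was a gained partner, and for Thumpd3 where they overlap its gained partner of lowest FDR in each cell type. Genes at kept pairs, control pairs and neighbouring bins, and Npas3, were named after their values were seen.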

Additional observations from a re-analysis of the deposited data

How the results depend on the processing

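With FitHiChIP lists, 6 of the 10 promoters held more loops with auxin in NPCs (equal at Hnrnph3 and Slc37a1, fewer at Thumpd3 and Gprc5c) and 7 in ESCs (equal at Kpna4, Slc37a1 and Tmem171). The loops were then 44 in ESCs with auxin and 47 in NPCs with auxin, the median distance of gained pairs was 510 kb in ESCs, and 62.5% of gained pairs in ESCs and 79.3% in NPCs had both bins marked. Limited to 20 to 1000 kb, FitHiChIP gave 6 promoters in NPCs, 44 loops in ESCs and 44 in NPCs with auxin, 510 kb in ESCs, 62.5% in ESCs and 81.5% in NPCs. With an FDR under 0.001, 54 loops were left in ESCs and 70 in NPCs with auxin, fewer by construction, and 36.7% of gained NPC pairs had both bins marked. Gprc5c then held no more loops in NPCs with auxin than in control. Runs of adjacent partners numbered 52 in ESCs and 52 in NPCs with auxin, of which gained runs held a marked bin in 46.5% in ESCs and 42.5% in NPCs, and Tmem171 in ESCs and Thumpd3 in NPCs had no more runs with auxin. A tolerance of 1 bin raised the share of ESC auxin pairs found in NPCs to 69.8%. With neighbouring bins counted, none of the 11 values moved past the bounds given below, but Thumpd3 held no more loops in NPCs with auxin. Of 66 values under the 6 alternatives, 46 stayed within 1.5 times the reported count or, for shares and medians, inside its 95% interval, and 20 moved further. Some changed side: the marked pairs turned from a minority with MAPS to a majority with FitHiChIP, and the NPC median distance from above that of all promoters to below it. The cause of the differences between callers, and the part of depth in the gained pairs, were not tested. No paired analysis was possible because each group has 1 list and its columns carry no replicate numbers, and for the same reason no replicate could be left out.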
